A study of Mus musculus with 20 samples.

Results

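The clock output genes described here are 7 of the 12988 genes in the count table: Dbp, Tef, Hlf, Nfil3, Bhlhe40, Bhlhe41 and Ciart. They were taken by symbol. The group was chosen by an earlier look at these libraries, in which Bhlhe41, Tef and Dbp had the smallest p-values for stress averaged over the sexes. Stress differences of the 7 genes are therefore given as description, with no test, and support nothing. RNA came from the adBNST (the anterodorsal part of a limbic forebrain nucleus, the bed nucleus of stria terminalis) of mice that were 7 to 9 weeks old when assigned to a group. Stressed mice went through chronic variable mild stress, in which minor stressors changed from day to day over 6 weeks, and control mice did not. There were 5 libraries each of female controls, stressed females, male controls and stressed males, 20 in all, and each library pooled tissue of 3 mice. All mice were given ketamine before the brain was taken. In stressed mice this was 1 hour after a final stressor of wet bedding. Some of the stressors moved the light schedule itself, with lights left on through the night or darkness during the day phase. The time of day at which tissue was taken is not given in the sources used here.

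In the mammalian clock, CLOCK and BMAL1 bind E-boxes and switch on the Per and Cry genes, whose proteins then block CLOCK and BMAL1. The same loop drives output genes that pass the rhythm on. Dbp, Tef and Hlf encode the PAR bZIP activators, which bind D-boxes, and Nfil3 encodes a repressor that competes for the same sites. Bhlhe40 and Bhlhe41, also named DEC1 and DEC2, encode repressors that occupy E-boxes. Ciart, also named Chrono, encodes a protein that represses CLOCK and BMAL1.

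Sites through which the loop acts can lie upstream of a gene, so the 250 bases before the start were read for 6 of the 7 genes from the RefSeq promoter table (GRCm38.p6), with Bhlhe40 having no entry there. Both strands were searched for the E-box CACGTG, the variant CACGTT, the D-box TTATGTAA or TTACGTAA, and the cyclic AMP response element TGACGTCA. No match overlapped another. Starts here are those of RefSeq, and they differ from the starts of the GENCODE M21 gene spans given below. By those spans, both Tef windows lie wholly inside the gene. The windows of Dbp, Bhlhe41, Nfil3 and Ciart lie partly inside, and that of Hlf lies outside. The last motif was added after the sequences had been seen. Matches are in capitals in these promoters, shown because they belong to the 3 genes with an E-box, to Hlf, and to Dbp, which had no match.
Ciart, chr3:95882229-95882478, minus strand: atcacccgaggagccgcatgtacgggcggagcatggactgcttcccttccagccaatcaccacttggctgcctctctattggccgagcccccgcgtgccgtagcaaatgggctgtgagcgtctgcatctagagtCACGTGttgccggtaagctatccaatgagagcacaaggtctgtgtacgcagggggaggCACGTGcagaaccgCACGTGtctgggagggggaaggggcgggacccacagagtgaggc
Bhlhe41, chr6:145865421-145865670, minus strand: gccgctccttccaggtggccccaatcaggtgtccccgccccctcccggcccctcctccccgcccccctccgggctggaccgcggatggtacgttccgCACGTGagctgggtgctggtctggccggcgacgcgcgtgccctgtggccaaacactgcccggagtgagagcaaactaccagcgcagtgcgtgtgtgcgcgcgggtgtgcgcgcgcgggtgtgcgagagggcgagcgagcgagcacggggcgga
Tef, first start, chr15:81802423-81802672, plus strand: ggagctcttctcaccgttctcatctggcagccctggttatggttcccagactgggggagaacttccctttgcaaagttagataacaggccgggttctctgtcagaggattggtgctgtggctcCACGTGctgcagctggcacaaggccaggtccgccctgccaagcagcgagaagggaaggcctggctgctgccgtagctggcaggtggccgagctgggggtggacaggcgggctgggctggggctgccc
Tef, second start, chr15:81811164-81811413, plus strand: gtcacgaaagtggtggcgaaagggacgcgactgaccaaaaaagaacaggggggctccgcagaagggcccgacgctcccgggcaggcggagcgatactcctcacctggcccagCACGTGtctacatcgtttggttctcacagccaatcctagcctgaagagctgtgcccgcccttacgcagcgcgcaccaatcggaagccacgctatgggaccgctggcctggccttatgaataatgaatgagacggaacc
Hlf, chr11:90390918-90391167, minus strand: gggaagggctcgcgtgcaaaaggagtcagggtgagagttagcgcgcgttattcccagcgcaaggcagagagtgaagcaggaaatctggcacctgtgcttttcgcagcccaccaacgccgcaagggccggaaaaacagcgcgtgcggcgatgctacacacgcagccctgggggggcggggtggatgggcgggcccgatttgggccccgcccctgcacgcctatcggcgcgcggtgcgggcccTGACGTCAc
Dbp, chr7:45704997-45705246, plus strand: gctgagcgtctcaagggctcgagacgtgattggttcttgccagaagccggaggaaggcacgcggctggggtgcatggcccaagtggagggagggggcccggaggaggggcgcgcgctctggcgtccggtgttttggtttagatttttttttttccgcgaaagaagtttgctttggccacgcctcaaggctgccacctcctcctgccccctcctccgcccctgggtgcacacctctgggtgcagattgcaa

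Ciart had 3 E-boxes, whose first bases lay 116, 58 and 44 bases before the start. Of 32851 mouse promoters of this length, 6.02% held at least 1 such E-box and 0.0609% held 3 or more. Bhlhe41 had 1 E-box, at 153 to 148 bases before its start. Both starts of Tef had 1, at 127 to 122 and at 138 to 133 bases before the start. In all, the E-box stood in 4 of the 7 promoters of these genes. The variant CACGTT and the D-box were in none of them, against 3.85% and 0.931% of all promoters. Hlf had a cyclic AMP response element at 9 to 2 bases before its start, a motif present in 1.55% of promoters. No match in this window says only that these letters are not there: sites elsewhere in Dbp or Nfil3 were not searched.

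The libraries held 2.71 to 33.6 M (mega) counts each, with a median of 15.6 M. The shallowest, female control 4, limited the precision for the 2 rarest genes, with 23 counts for Nfil3 and 25 for Ciart. Gad1, Gad2 and Slc32a1, which mark the GABA neurons that make up most of this nucleus, were at 628 to 757, 983 to 1250 and 265 to 342 CPM (counts scaled by library size), and all 10 forebrain GABA markers were detected in each library. All 14 markers of striatal neurons were detected as well, the lowest at 19.9 CPM. Their score, the mean log2 CPM centred on 0 over the 20 libraries, spanned -0.601 to 0.63. It was higher in stressed than in control males by 0.652 (exact permutation test, two-sided, p = 0.00794, the smallest that 252 splits allow, adjusted p = 0.0317 over 4 comparisons). It was lower in male than in female controls, with a difference of -0.585 (exact permutation p = 0.0159, adjusted p = 0.0317). In females the stress difference was 0.00728 (exact permutation p = 0.976). The marker list was drawn up with earlier results of these data known, so these tests of the score are not independent evidence. Fewer cells of a type and less RNA per cell cannot be told apart in such tissue.

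Tef was the most abundant of the 7 genes and Nfil3 the least. Per kilobase of annotated exon (GENCODE M21), which allows genes to be compared, Tef stood at 44.8 CPM per kb over the 20 libraries, with a range of 37.8 to 52.4. Hlf followed at 25.8 CPM per kb, Dbp at 16.7, Bhlhe40 at 13.2 and Bhlhe41 at 10.04. Ciart, at 4.63 CPM per kb, and Nfil3, at 3.79, formed the low end. The range of Tef lay above that of Hlf, and the range of Bhlhe41 (8.74 to 12) lay above that of Ciart (3.64 to 6.06). Each other neighbour in the order overlapped the next over its 20 libraries, Hlf and Dbp only just, since the lowest Hlf value was 21.5 and the highest Dbp value 22.1 CPM per kb. The lengths join all annotated exons of a gene and may exceed the transcript made in this tissue.

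Among the activators, Dbp (chr7:45705088-45710203, plus strand) had the largest stress difference of the 7 genes. Its level in female controls 1 to 5 was 44.6, 48.1, 42.2, 42.9 and 46.9 CPM, and in stressed females 56.8, 43.9, 64.9, 66.3 and 63.1 CPM. In male controls it was 40.5, 42.5, 39.8, 40.0 and 43.8 CPM, and in stressed males 52.4, 64.4, 62.1, 47.4 and 46.3 CPM. Control libraries of either sex kept within a narrow band, while stressed libraries were spread widely, and all 5 stressed males lay above all 5 control males. In females 4 of 5 did so, with stressed female 2 inside the control range. Group means went from 44.9 ± 2.53 to 59.0 ± 9.19 CPM in females and from 41.3 ± 1.75 to 54.5 ± 8.34 CPM in males (SD, n = 5). As fitted log2 fold changes these were 0.38 (SE 0.10) and 0.39 (SE 0.10), or 30.5% and 31.3% higher. The 3′ end of Dbp meets Sphk2 on the opposite strand over 539 exonic bases. Whether counting used strand is not given in the sources used here, and Sphk2 itself differed with stress by a log2 fold change of 0.04 in females and -0.10 in males.

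Tef (chr15:81802421-81826863, plus strand), the most abundant activator, differed by a smaller fold with less scatter. Female controls 1 to 5 had 333, 312, 298, 348 and 314 CPM, and stressed females 380, 335, 377, 412 and 394 CPM. Male controls had 345, 352, 307, 310 and 329 CPM, and stressed males 375, 413, 386, 369 and 363 CPM. Again the male groups did not overlap, and among females stressed female 2 alone fell inside the control range. The means were 321 ± 19.7 and 380 ± 28.3 CPM in females and 329 ± 20.2 and 381 ± 19.7 CPM in males (SD, n = 5), with log2 fold changes of 0.24 (SE 0.06) and 0.21 (SE 0.06).

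Hlf (chr11:90336536-90390895, minus strand), the remaining activator, differed more in males than in females by its values. Female controls 1 to 5 had 177, 144, 153, 165 and 181 CPM, and stressed females 173, 160, 190, 192 and 199 CPM. Male controls had 150, 156, 155, 146 and 147 CPM, and stressed males 174, 217, 208, 178 and 179 CPM. The 5 male controls lay within 10 CPM of each other and below every stressed male, while the female groups overlapped. The log2 fold change was 0.16 (SE 0.07) in females and 0.35 (SE 0.07) in males.

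Nfil3 (chr13:52967209-52981073, minus strand), the repressor at the same sites as the activators, showed no shared direction. Female controls 1 to 5 had 7.41, 6.19, 6.20, 8.66 and 8.22 CPM, and stressed females 7.81, 8.54, 9.01, 7.47 and 6.93 CPM. Male controls had 7.61, 9.96, 7.38, 8.08 and 8.35 CPM, and stressed males 6.52, 6.87, 6.88, 8.92 and 6.68 CPM. Groups overlapped in both sexes, though 4 of the 5 stressed males lay below all 5 control males. The log2 fold change was 0.17 (SE 0.12) in females and -0.18 (SE 0.11) in males. The log2 ratio of Dbp to Nfil3, an activator against a repressor of one site, averaged 2.31 ± 0.137 in male controls and 2.90 ± 0.331 in stressed males (SD, n = 5). In females it averaged 2.61 ± 0.244 and 2.86 ± 0.328.

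Bhlhe41 (chr6:145858243-145865558, minus strand), an E-box repressor, was the only one of the 7 genes whose stressed and control libraries did not overlap in either sex. All stressed libraries lay above all controls for 0.654% of all genes in females and 3.13% in males. The share of genes that did so in both sexes was not counted. Since its stress difference helped to choose this gene, nothing is read from the separation. Female controls 1 to 5 had 63.7, 59.9, 58.9, 59.9 and 62.9 CPM, and stressed females 75.3, 65.2, 75.5, 72.2 and 67.3 CPM. Male controls had 68.4, 64.0, 58.7, 64.6 and 63.8 CPM, and stressed males 71.6, 80.6, 75.2, 70.3 and 72.1 CPM. The gap was small in both sexes, with stressed female 2 and male control 1 nearest to it. Its log2 fold change was 0.21 (SE 0.05) in each sex, or 16% in females and 15.4% in males. Bhlhe41 also had the lowest scatter of the group, with a within-group SD of 0.0775 on the log2 scale, at percentile 11.9 of all genes. Dbp, at 0.172, was at percentile 69.1. Part of Bhlhe41 lies opposite the unclassified transcript Gm43909, which overlaps 1280 of its exonic bases.

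Bhlhe40 (chr6:108660629-108666925, plus strand), the paralog of Bhlhe41, had a smaller and more uneven difference. Its level ran from 55.3 to 69.3 CPM in female controls, from 58.3 to 71.0 in stressed females, from 54.1 to 66.9 in male controls and from 55.6 to 75.3 in stressed males. The groups overlapped over most of their range. The log2 fold change was 0.16 (SE 0.08) in females and 0.04 (SE 0.08) in males. It was -0.03 in males without stressed male 1, and 0.24 in females with the oligodendrocyte score as a covariate.

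Ciart (chr3:95878503-95882251, minus strand), the CLOCK and BMAL1 repressor with 3 E-boxes, was low throughout. Female controls 1 to 5 had 10.6, 9.28, 8.82, 9.41 and 8.22 CPM, and stressed females 13.7, 10.6, 11.1, 10.8 and 12.8 CPM. Male controls had 10.6, 9.15, 9.26, 9.37 and 10.9 CPM, and stressed males 9.98, 12.1, 13.0, 10.4 and 9.23 CPM. In females 4 of 5 stressed libraries lay above all controls, and in males 2 of 5 did. The log2 fold change was 0.32 (SE 0.11) in females and 0.14 (SE 0.10) in males. The whole of Ciart lies within the span of an opposite-strand gene, C920021L13Rik, which is not among the genes of the table.

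**Figure D1:**
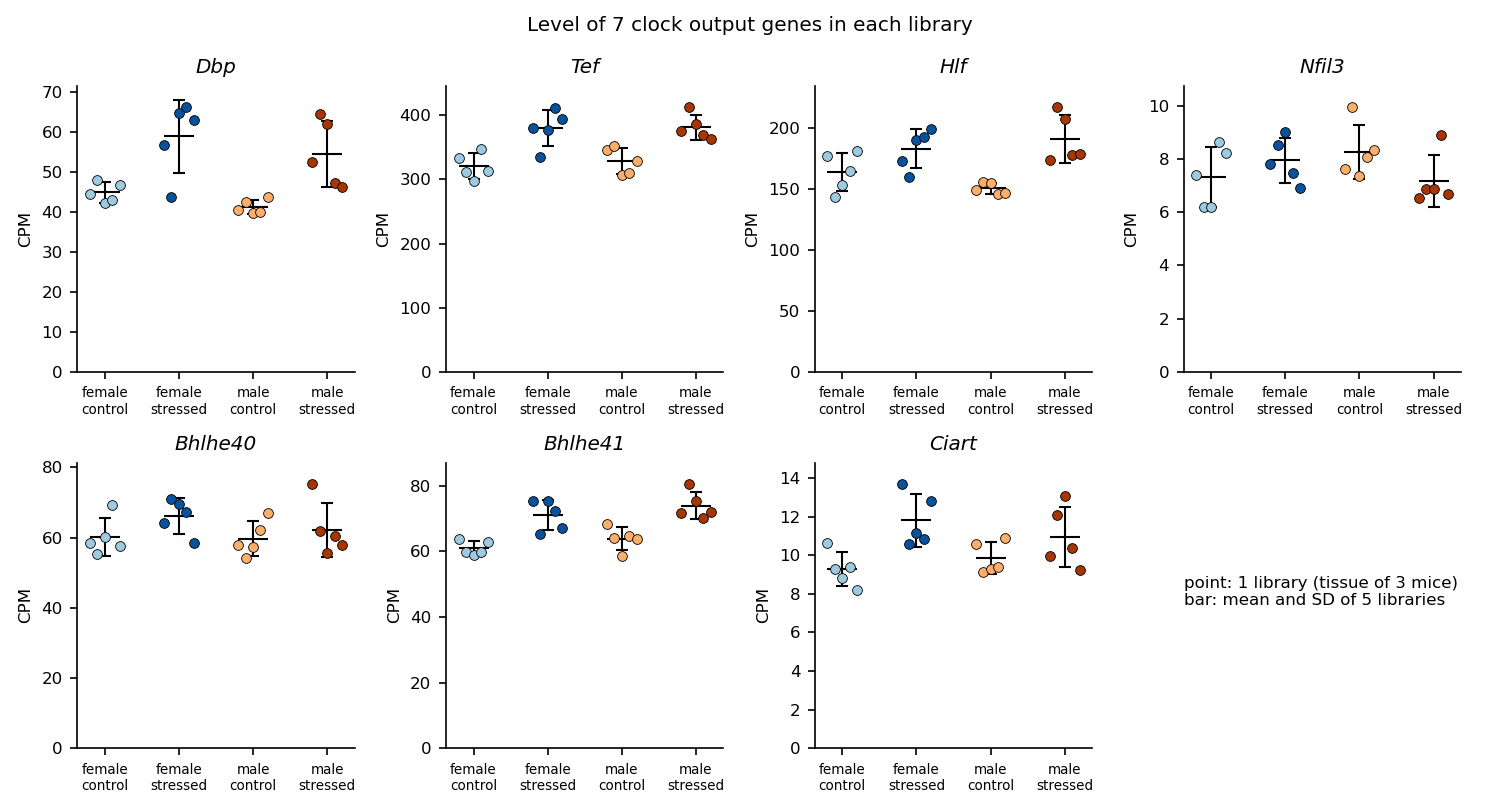
Level of each of the 7 genes in CPM (vertical axes, from 0) in the 20 libraries, by group; a point is 1 library of 3 pooled mice, and bars show the mean and SD of 5 libraries. Stressed males lie above control males for Dbp, Tef, Hlf and Bhlhe41, and the groups of Nfil3 and Bhlhe40 overlap in both sexes.

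With the edgeR quasi-likelihood test, no gene of the table passed an adjusted p of 0.05 for stress averaged over the sexes or in females (0% called each). In males 1 gene passed, 0.0077% of those tested, and it is none of the 7. By the simpler count of libraries, Bhlhe41 alone of the 7 genes had all 5 stressed females above all 5 control females, where 0.654% of all genes did. Without stressed female 2 this held for 4 of the 7 genes, Dbp, Tef, Bhlhe41 and Ciart, against 1.44% of all genes. Stressed female 2 had the lowest value of its group in Dbp, Tef, Hlf, Bhlhe41 and Ciart. It also had the lowest striatal score of its group (-0.494) and the highest thalamic marker score of all 20 libraries (0.516). In males 4 of the 7 genes had all 5 stressed libraries above all controls, against 3.13% of all genes. Since stress differences chose these genes, nothing is read from these counts.

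The difference between the sexes played no part in that choice and could be tested. In control mice 97 genes passed in edgeR, 0.747% of all, and 0 of these 7 genes did. At an unadjusted p under 0.05 there were 0 of the 7, beside 1981 genes of the table. The smallest of the 7 p-values was that of Nfil3, with a male minus female log2 fold change of 0.22 (95% interval -0.03 to 0.48, adjusted p = 0.399 in edgeR). For Dbp the difference was -0.12 (-0.35 to 0.10), for Hlf -0.12 (-0.28 to 0.03) and for Bhlhe41 0.07 (-0.05 to 0.18). No gene of the 7 separated male from female controls, while 3.97% of all genes did. The interval of Ciart reached 0.32, and those of Bhlhe40 and Tef reached 0.18 and 0.16. The striatal score differed between these same 2 groups, and with it as a covariate the differences of Dbp, Hlf and Bhlhe40 changed sign, to 0.10, 0.05 and -0.05. Those of Tef, Ciart and Bhlhe41 were larger, at 0.16, 0.22 and 0.12, and that of Nfil3 was 0.22. With this covariate 1 of the 7, Tef, had an unadjusted p under 0.05 (adjusted p = 0.221 in edgeR), as did 1609 genes of the table. Of the 7 genes 0 passed.

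In stressed mice 10 genes passed for sex, 0.077% of all, and 0 of the 7. Again 0 of the 7 were at an unadjusted p under 0.05, beside 917 genes of the table. The log2 differences, male minus female, ran from -0.13 for Nfil3 to 0.06 for Hlf, and the lowest adjusted p in edgeR was 0.818, for Bhlhe40. None of the 7 genes separated the sexes, against 1.27% of all genes. Tef was the closest to equal, at 0.01 (95% interval -0.12 to 0.13).

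The interaction asks whether the stress difference itself is unequal in males and females. In edgeR 0 genes passed (0%), with 1347 at an unadjusted p under 0.05, of which 1 was among the 7. DESeq2 called 22 genes of the table for the interaction, and 0 of the 7. The gene of the 7 at an unadjusted p under 0.05 in edgeR was Nfil3. Its male minus female stress difference was -0.35 (95% interval -0.69 to 0.0018, unadjusted p = 0.0464, adjusted p = 0.478 in edgeR). The interval uses only the residual degrees of freedom and is wider than the test implies, so it takes in 0. For Dbp the interaction was 0.01 (-0.29 to 0.31), for Tef -0.03 (-0.21 to 0.14) and for Bhlhe41 -0.01 (-0.17 to 0.15). Hlf, with its larger value in males, gave 0.18 (-0.03 to 0.40, adjusted p = 0.542 in edgeR). A p that misses the threshold does not show that the sexes respond alike, and the intervals of Dbp, Nfil3 and Ciart (-0.50 to 0.13) were wide beside the stress differences themselves.

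The male groups did not overlap in the striatal score: the highest control was at -0.209 and the lowest stressed library at -0.00589. The female groups spanned -0.461 to 0.434 and -0.494 to 0.614. With the score as a covariate, the log2 stress difference in females was 0.35 (SE 0.07) for Dbp, 0.24 (SE 0.04) for Tef and 0.21 (SE 0.05) for Bhlhe41, close to the values without it. In males it was 0.12 (SE 0.09) for Dbp, 0.08 (SE 0.06) for Tef, 0.14 (SE 0.06) for Hlf and -0.02 (SE 0.12) for Ciart, all smaller than without it. Bhlhe41 in males was 0.15 (SE 0.06) and Nfil3 -0.17 (SE 0.14). Bhlhe40 went the other way, from 0.04 to 0.12 (SE 0.09). Single female libraries with like scores differed in Dbp at the high end and hardly at the low end. Control 1, with a score of 0.434, had 44.6 CPM and stressed female 4, at 0.456, had 66.3 CPM, while control 3, at -0.461, had 42.2 CPM and stressed female 2, at -0.494, had 43.9 CPM. These pairs were picked after their values were seen and support nothing. No male control had a score near those of the stressed males, so in males the covariate rests on the slope that all 4 groups share, and stress and the striatal share of the tissue cannot be told apart there. With this covariate the interaction of all 7 genes was negative, as it was for 6173 of the 12988 genes of the table. Tef and Ciart were at an unadjusted p under 0.05 in edgeR, as were 1518 genes of the table. Of the 7 genes 0 passed (lowest adjusted p = 0.385).

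**Figure D2:**
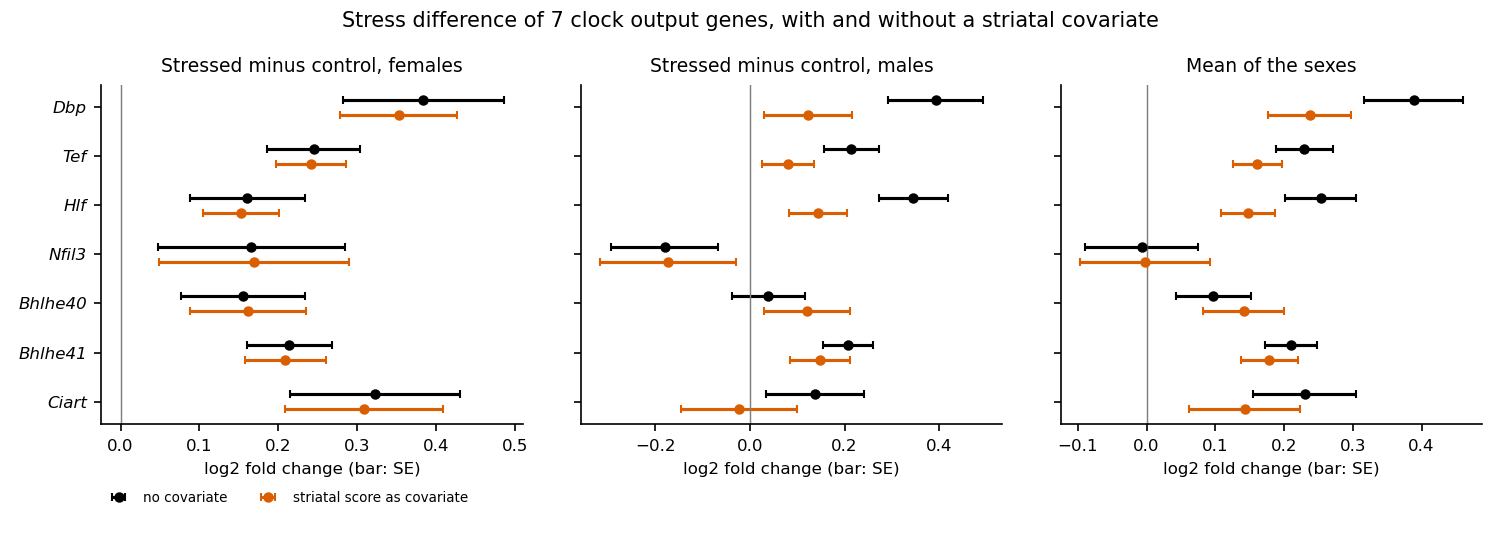
Stressed minus control log2 fold change (horizontal axes) of the 7 genes in females, in males and as the mean of the sexes, without a covariate (black) and with the striatal marker score as a covariate (orange); bars are 1 SE. The pairs nearly coincide in females, and in males Dbp moves from 0.39 to 0.12 and Tef from 0.21 to 0.08.

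**Figure D3:**
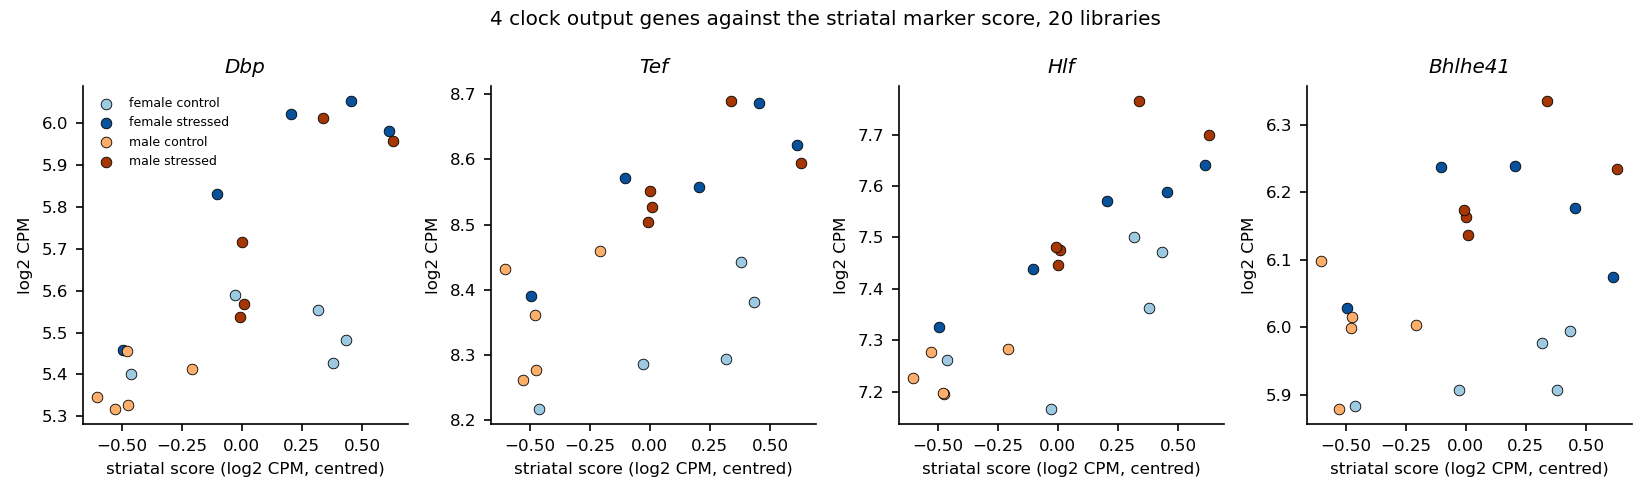
Log2 CPM of Dbp, Tef, Hlf and Bhlhe41 (vertical axes, not from 0) against the striatal marker score (horizontal axes, log2 CPM centred on 0) in 20 libraries coloured by group. Male controls have scores of -0.601 to -0.209 and stressed males of -0.00589 to 0.63, while both female groups cover most of the axis.

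Hlf followed the striatal score most closely. After the 4 group means were taken off, Pearson's r over the 20 libraries was 0.815 for Hlf, 0.743 for Tef and 0.712 for Dbp. It was lower for Ciart (0.373) and Bhlhe41 (0.344), and near or below 0 for Nfil3 (0.158) and Bhlhe40 (-0.296). Bhlhe40 instead moved with the astrocyte (0.682) and oligodendrocyte (0.650) marker scores. Dbp, Tef and Hlf ran against the thalamic score, at -0.746, -0.686 and -0.613, and so did Bhlhe41 (-0.563) and Ciart (-0.535). The same genes ran against the score of the forebrain GABA markers, from -0.447 for Bhlhe41 to -0.636 for Ciart. Bhlhe40 went with both scores (0.471 and 0.473), and Nfil3 was near 0 (-0.0479 and -0.0544). The points share library, depth and dissection, and these values are description only. The part of the glial, thalamic and forebrain GABA scores in the stress differences was not tested beyond the covariates named in the closing section.

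Among Dbp, Tef, Hlf, Bhlhe41 and Ciart, the 10 pairs had r from 0.555 to 0.856 over the 20 libraries, with a median of 0.744. The 11 pairs that include Nfil3 or Bhlhe40 had r from -0.197 to 0.245. Taking off the group means, which removes differences between the groups, left a median of 0.533 in the first set and -0.0805 in the second. Removing the striatal score as well brought the first set to a median of 0.286, and the sets then overlapped (0.0361 to 0.529 against -0.425 to 0.247). Tef and Hlf went from 0.620 to 0.0361 in that step, whereas Bhlhe41 kept 0.529 with Dbp and 0.515 with Tef. The Dbp and Tef pair, at 0.660 after centring, was at 0.479 without stressed female 2 and 0.753 without female control 4. This division of the genes was made after their values had been seen.

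**Figure D4:**
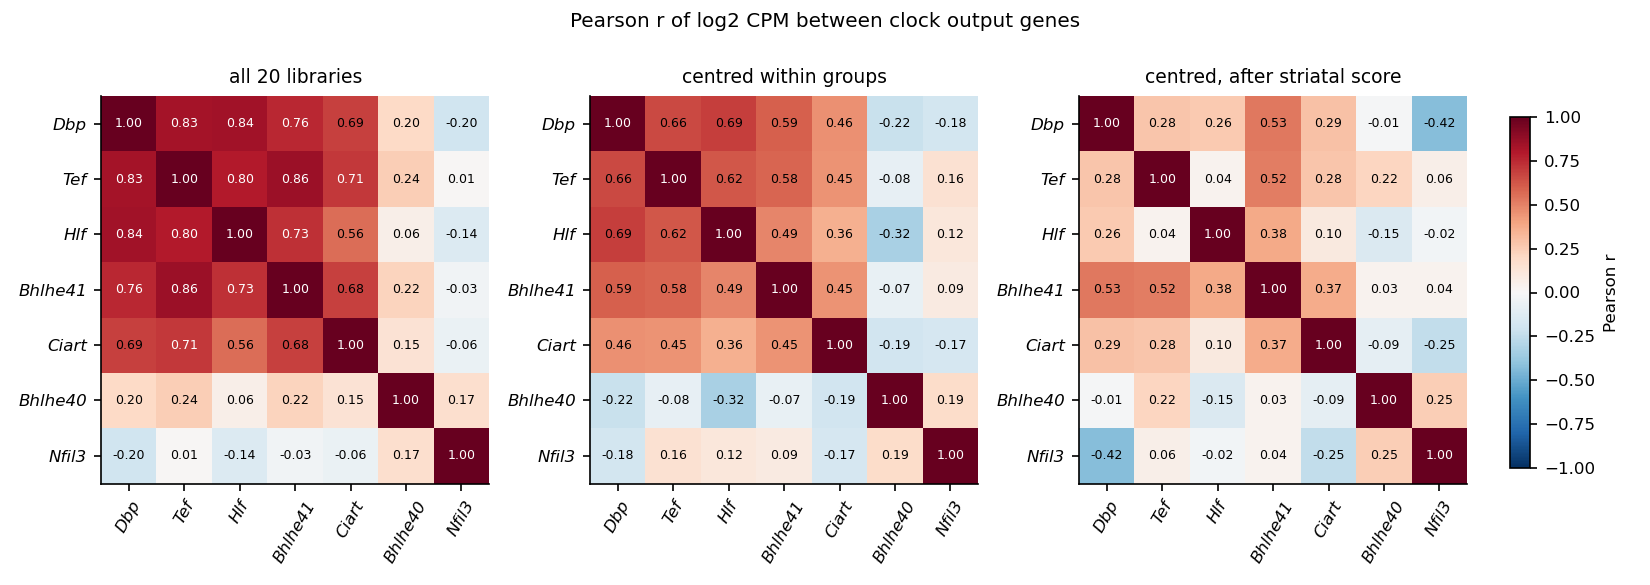
Pearson r of log2 CPM between the 7 genes over 20 libraries (colour, -1 to 1), as measured, after centring within the 4 groups, and after also removing the striatal score. The pairs with Nfil3 or Bhlhe40 lie below all pairs of the other 5 genes in the first and second panels and overlap them in the last, and the median r among those 5 goes from 0.744 to 0.533 and 0.286.

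Each gene had its own closest companions in the table, by r of centred log2 CPM over the 20 libraries. For Dbp these were Igfbp4 (0.896), which binds insulin-like growth factors, Agfg2 (0.892) and Gpr146 (0.875). The strongest opposite patterns were those of Gdpd2 (-0.868), Tekt2 (-0.839) and Fam169a (-0.825). For Tef they were Tbc1d16 (0.895), D430019H16Rik (0.894) and Il34 (0.871), a ligand of the microglial CSF1 receptor. Those of Hlf were Kcna4 (0.930), a potassium channel, Fam49a (0.910) and Diras2 (0.904), all of which had r of 0.924 to 0.943 with the striatal score. The companions of Bhlhe41, which were the replication helicase subunit Mcm4 (0.820), Osbpl10 (0.808) and Ccdc149 (0.792), had r of 0.311, 0.148 and 0.419 with that score. Ciart was closest to the kinase gene Stk11 (0.801), to B9d2 (0.795) and to Otud1 (0.743). Bhlhe40 was closest to the sorting nexin gene Snx33 (0.910), C77080 (0.883) and Atg3 (0.873), and Nfil3 to Tmed9 (0.811), Ensa (0.807) and Utp3 (0.800). With the striatal score, the companions of Ciart had r of 0.435 to 0.47. Those of Bhlhe40 had -0.442 to -0.315, and those of Nfil3 -0.264 to 0.278. The 7 genes themselves were left out of this ranking, so none could appear as a companion of another.

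The core loop was measured through 16 genes, none of them among the 7. This list, like the other, was drawn up with earlier results of these data known, so its tests of stress are not independent evidence. In edgeR 0 of the 16 passed for stress averaged over the sexes, with 6 at an unadjusted p under 0.05. The log2 fold change was positive for 12 of 16, with a median of 0.08, beside 46.9% positive and a median of -0.01 over all genes. The 7 output genes had a median of 0.23. The smallest p belonged to Cry2, a repressor of CLOCK and BMAL1, at 124 ± 6.88 and 141 ± 12.7 CPM in control and stressed females and 130 ± 8.10 and 148 ± 12.6 CPM in males (SD, n = 5). Its log2 fold change was 0.19 (SE 0.05, adjusted p = 0.256 in edgeR). Per2, another repressor of the loop, had 0.27 (SE 0.08), and Cry1 had 0.22 (SE 0.07), with the same adjusted p. With the striatal score as a covariate Cry2 had 0.09, Per2 0.14 and Cry1 0.11, while Arntl, the gene of BMAL1, went from -0.11 to -0.23. The list then had 12 of 16 positive with a median of 0.05, and 0 passed (lowest adjusted p = 0.967 in edgeR). Without stressed female 2 and with no covariate, Cry1 (0.26, adjusted p = 0.0399) and Cry2 (0.21, adjusted p = 0.0399) passed in edgeR. They were among 150 of the 12988 genes of the table that passed there for stress averaged over the sexes. Cry1 also passed in males in that fit (0.30, adjusted p = 0.046 in edgeR), where the count over the table is not given here.

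Per1, which is both a clock gene and an immediate response gene, was uneven between the sexes. It stood at 88.9 ± 16.1 CPM in control and 123 ± 14.5 in stressed females, and at 112 ± 10.1 and 114 ± 16.8 CPM in males (SD, n = 5). The log2 stress difference was 0.46 in females (SE 0.11, adjusted p = 0.389 in edgeR) and 0.04 in males, and the interaction of -0.42 did not pass (adjusted p = 0.368). With the striatal score as a covariate Per1 passed in edgeR for stress in females (0.45, adjusted p = 0.0301), as 1 of 4 genes of the table. Of the 7 output genes 1 was also called there, and since stress differences chose those genes, nothing is read from it. Per1 also passed for sex in controls (0.61, adjusted p = 0.000747), as 1 of 69, and alone for the interaction (-0.74, adjusted p = 0.0197). In males its stress difference was then -0.29 (SE 0.09, adjusted p = 0.809 in edgeR). The male groups did not overlap in this score, so that value and the interaction rest on the slope that all 4 groups share. The score also differed between female and male controls. With the thalamic score as a covariate, Per1 (0.32, adjusted p = 0.0439) and Npas2 (-0.31, adjusted p = 0.049), a paralog of Clock, passed in edgeR for sex in controls. They were among 584 of the 12988 genes of the table that passed there. Per1 was singled out after its values had been seen. Per3 had 0.36 in females and -0.07 in males, and Arntl, which encodes BMAL1, -0.24 and 0.02, with none of these passing.

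**Figure D5:**
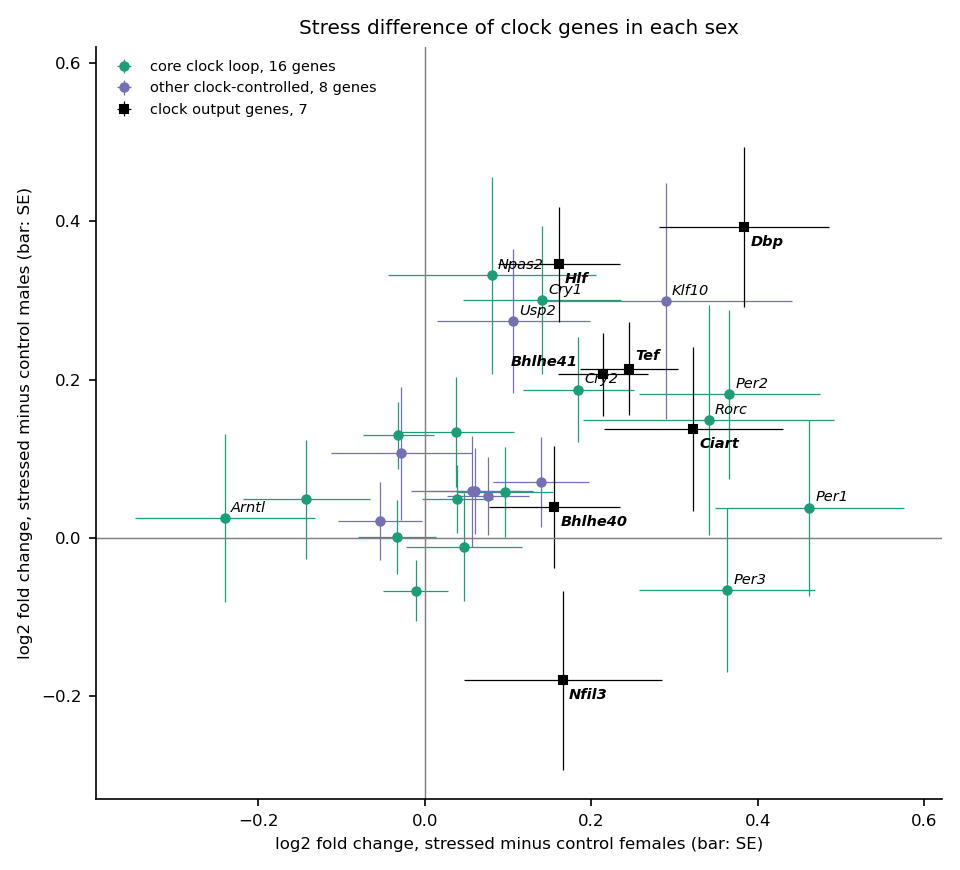
Stress difference in females (horizontal axis) against males (vertical axis), as log2 fold change with bars of 1 SE, for 16 core clock genes (green), 8 other clock-controlled genes (purple) and the 7 output genes (black squares). Dbp lies farthest along both axes together, and Per1 and Per3 lie to the right near the horizontal line at 0.

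Of 8 other clock-controlled genes, 0 passed for stress averaged over the sexes in edgeR. An unadjusted p under 0.05 was found for 3 of the 8, beside 1653 of the 12988 genes of the table. A positive value was found for 7 of 8, with a median of 0.06 over the list. Usp2, a deubiquitinase, had 0.19 (SE 0.06, adjusted p = 0.270), Klf10, a zinc finger factor, 0.29 (SE 0.11, adjusted p = 0.282), and Por, the P450 reductase, 0.10 (SE 0.04, adjusted p = 0.299), all in edgeR. With the striatal score as a covariate Usp2 had 0.04, Klf10 0.07 and Por 0.06, and 6 of 8 genes were positive with a median of 0.04. In males alone positive values went from 8 of 8 to 3 of 8 with it, and in females they stayed at 6 of 8. With all 20 libraries and no covariate, no gene of either list passed in the other 5 contrasts. DESeq2 called 13 genes of the whole table for stress averaged over the sexes, and none was on either list.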

How the data were processed

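The authors deposited whole-number counts per gene symbol for 20 libraries. Per the labels, a stranded mRNA kit was used and tissue of 3 mice was pooled per library. The submitters' processing notes name STAR, featureCounts and mm10, and versions, annotation and strand setting are not given in the sources used here. All 20 columns matched 1 label each, leaving 0 columns over, and every row total was at least 1002. Members and gene lists were chosen with earlier results of these data known.

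Counts were fitted in edgeR 4.0.16 (R 4.3.3) with TMM factors, 1 mean per group and the quasi-likelihood test. filterByExpr kept all 12988 genes, and the common biological coefficient of variation was 8.83%. Two-sided p-values were adjusted by the method of Benjamini and Hochberg over all genes of a contrast, with a threshold of 0.05. Intervals at 95% use the fit's SE and 16 residual degrees of freedom, which makes them somewhat wider than the tests imply. They and the p-values measure the spread between pools of 3 mice, which is smaller than that between mice. Log2 CPM for scores and correlations used a prior count of 2. Gene positions are from GENCODE M21 on GRCm38, the build that mm10 names. Named genes are all 7 members, the 3 genes most like each (for Dbp also the 3 most opposite), and in the other lists those called or, with none called, the 3 with the smallest p. No batch is named in the labels. The pipeline was tested on simulated counts. Alternatives were other scalings, DESeq2 1.42.0, limma-voom (limma 3.58.1), the robust option, fits of only the groups compared, a replicate block, low-count filters, marker score covariates and each library left out. The thalamic covariate and the joint omission of female control 4 and stressed female 2 were chosen after seeing the data.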

Additional observations from a re-analysis of the deposited data

Results flagged for a closer look

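Stressed male 4 stood apart in Nfil3, at 8.92 CPM, while the other 4 stressed males lay at 6.52 to 6.88 CPM. It was the only library to do so among 32 groups of 5 values examined, the 7 genes and the striatal score in 4 groups each. Chance alone sets a library apart in about 1 in 20 groups. Without it the log2 stress difference of Nfil3 in males was -0.29 in place of -0.18, and the interaction -0.45 in place of -0.35.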

How the results depend on the processing

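None of the 7 genes passed for sex in controls, sex in stressed mice or the interaction under any of the 12 other settings or with any of the 20 libraries left out, and the lowest adjusted p-values were 0.221, 0.390 and 0.352. Small differences changed sign. With the striatal covariate, sex in controls was 0.0957 for Dbp, 0.0540 for Hlf and -0.0530 for Bhlhe40, Tef in stressed mice was -0.00480, and the interaction was -0.231 for Dbp and -0.00959 for Hlf. Tef in stressed mice was also -0.00186 with a mean CPM of at least 10, a filter that removes Nfil3. With the thalamic covariate Tef was -0.0221 there and the Dbp interaction -0.0405, and without female control 4 and stressed female 2 together they were -0.0368 and -0.0786. The Bhlhe41 interaction was 0.00345 with the oligodendrocyte covariate. Leaving out 1 library gave ranges of -0.0311 to 0.0528 for Bhlhe40 in controls, -0.0368 to 0.0364 for Tef in stressed mice, and for the interaction -0.0879 to 0.0657 (Dbp), -0.0732 to 0.000169 (Tef) and -0.0383 to 0.0177 (Bhlhe41). Core clock and clock-controlled genes passing for stress numbered 1 in females with the striatal covariate (Per1), and 0 to 2 for the mean of the sexes with 1 library left out, the 2 being Cry1 and Cry2 without stressed female 2. For sex in controls Per1 passed with the striatal covariate, and Per1 and Npas2 with the thalamic one. The correlation of Dbp and Tef was 0.831 uncentred, 0.279 after the striatal score, and 0.479 to 0.753 with 1 library left out. With a replicate block 0 of the 7 genes passed, and 48 in place of 97 genes of the table passed for sex in controls. Deviations of same-numbered libraries from their group means had r from -0.473 to 0.237. Libraries with different numbers were not compared in this way, so whether replicate numbers pair the libraries was not settled. Counts over the table moved more: sex in controls gave 32 (without female control 5) to 214 genes (without female control 3) with 1 library left out, 248 with DESeq2, 63 with limma-voom, 304 with only the groups compared, and 329 and 584 with the oligodendrocyte and thalamic covariates. Stress in males gave 239 with DESeq2, 303 with only the groups compared, and 0 to 129 with 1 library left out. The mean of the sexes gave 13 with DESeq2 and 150 without stressed female 2, and the interaction 22 with DESeq2 and 15 with the oligodendrocyte covariate. No stress difference of the 7 genes moved by more than the spread between libraries except Dbp, Tef, Hlf and Ciart in males with the striatal covariate. The cause was not tested. With 23 and 25 counts in female control 4, Nfil3 and Ciart are limited by depth there.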
